A study of Mus musculus with 6 samples.

Results

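The actin, myosin, spectrin and ankyrin genes were examined as alternative RNA events on a splicing-sensitive array, in brains that carried either the B6 or the CAST allele of the nuclear export factor Nxf1. Members were taken by gene symbol: actins and actin-related proteins, myosins, tropomyosins, tropomodulins, alpha-actinins, spectrins, ankyrins, adducins, the protein 4.1 family, dystrophin and its relatives, filamins, plakins, and proteins of branched or bundled actin. Events inside the congenic part of chromosome 19 were to be left out, and none of the members lay there. The symbols gave 191 events in 79 genes, of 13002 events in 7788 genes on the whole array, and 190 of the 191 had the intensities needed for a value. The exception was 1 complex event of the beta-adducin gene Add2. Of the 79 genes, 33 had 1 event, and Ank2 and Dst had the most, with 7 each.

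The samples were total brain RNA of 6 mice of a B6.CAST congenic line, in 3 same-sex littermate pairs with 1 array for each mouse. Within each pair, 1 mouse was homozygous for Nxf1-B6 and the other for Nxf1-CAST, on the C57BL/6J background that all of them shared. Pair 1 was female and 46 days old, pair 2 was male with the Nxf1-CAST mouse 23 and the Nxf1-B6 mouse 22 days old, and pair 3 was female and 23 days old. Nxf1-CAST mice carried the CAST form of the chromosome 19 interval around Nxf1, so the allele of Nxf1 and its neighbours on that interval cannot be told apart. The comparison asked whether the Nxf1 allele went with a different choice between alternative RNA forms.

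For each event the table listed the intensity of probe sets for the exclusion form (the skipped exon, the shorter or the other variant) and for the inclusion form, pooled over 3 arrays for each of the sets A and B. The separation used below is log2 of the exclusion to inclusion ratio in set B over the same ratio in set A, computed from those 4 intensities. A positive value means relatively more of the exclusion form in set B. Set B was likely Nxf1-CAST, because the table's notes place the mutant ratio over the wild-type ratio, but the sets themselves carry no genotype. Directions are therefore given by set. No value for a single animal was listed, so no error, n or test can be attached to any separation. An event is only said to lie past 0.5, a 1.41-fold difference in the ratio, the size used in the study's methods. The study also required a low false discovery rate, which was not applied here, so events past 0.5 are not its calls. The brightest probe set of each of 8 neuronal marker genes had an intensity of 1728 to 12087 in set A and 1598 to 11162 in set B, that of each of 4 glial genes 1467 to 11314 and 1621 to 10504, and that of each of 5 muscle genes 183 to 349 and 200 to 356. Among those 5 are the members Myh2 and Myh6, muscle myosin heavy chains. For 3 blood genes it was 188 to 559 and 221 to 667, and the median exclusion intensity of the array was 289 in set A. Only listed marker genes that had an event with a value are counted. Intensities of different probe sets are not compared here as levels of RNA.

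These proteins make up the cortex and the moving parts of the cell. Actin filaments are built on by the Arp2/3 complex and the Ena/VASP proteins, capped by tropomodulin, covered by tropomyosin and pulled by myosins. Spectrin tetramers tie actin to the membrane, where ankyrins hold ion channels and adhesion molecules, adducin and protein 4.1 strengthen the spectrin-actin joint, and dystrophin links actin to the matrix. In neurons the spectrin and ankyrin lattice underlies the axon initial segment and the nodes, and many genes of the lattice are rich in small, tissue-restricted exons.

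Most events of these genes differed little between the sets. Of the 190 events, 12 lay past 0.5 in either direction (6.32%), beside 7.34% of all 12948 events with a value. They came from 10 of the 79 genes (12.7%), beside 11.7% of all genes. The median absolute separation was 0.16, beside 0.18 over all events, and the 90th percentile was 0.39, beside 0.45. Of the 190 events, 68 lay under 0.1 and 37 over 0.3, and in 50 of the 79 genes every event stayed under 0.3. Among the 181 events with an exclusion path, 100 were above 0 and 81 below. Those past 0.5 were 4 above and 7 below, beside 4.52% of all such events above 0.5 and 2.72% below -0.5, and the twelfth, in Myo1c, has no exclusion path. The counts of members past 0.5 were close to or below the background of the array by events, and close to it by genes.

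**Figure D1:**
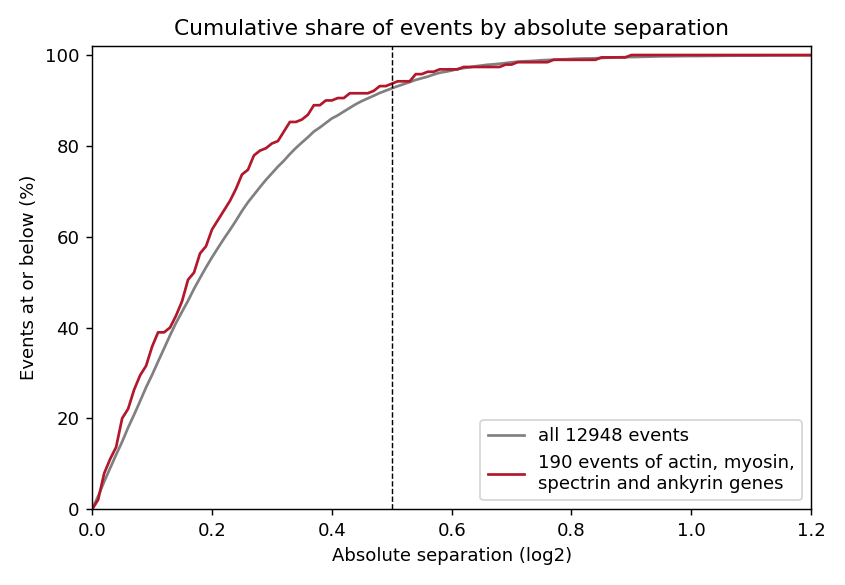
Cumulative share of events (vertical axis, %) at or below each absolute separation (horizontal axis, log2), for the 190 events of the actin, myosin, spectrin and ankyrin genes (red) and all 12948 events (grey), with a dashed line at 0.5. The lines run close together, and the red line crosses the median at 0.16, left of the grey line at 0.18.

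Part of the count came from genes outside these families that were taken because their symbols begin like a member's. Abi3bp, an extracellular matrix protein, Cttnbp2 and Cttnbp2nl, named as a cortactin-binding protein and its paralog, and Dtnbp1, the dysbindin subunit of a lysosome-related organelle complex, held 11 events, of which 4 lay past 0.5. By its name and by background knowledge Cttnbp2 is a partner of a member, not a member of a family, and the 4 genes are called matched by name only. Without them 8 of 179 events (4.47%) in 7 genes were past 0.5. These 8 fell in 5 of the 18 protein families, and in 13 families no event passed.

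The dystrophin group, which connects actin to the membrane glycoprotein complex, had 3 of its 17 events past 0.5 (17.6%), beside 7.34% of all events. The count was the highest of the 18 families, but the share was not, since tropomodulins had 1 of 5. The largest separation of all 190 events was an alternative 5′ splice site of Utrn, the gene of the dystrophin homolog utrophin. The variant segment is 31 nt, in the event listed at chr10:12471385-12485068 (minus strand, assembly not stated). Intensities for the exclusion form were 137 (set A) and 70 (set B) and for the inclusion form 127 and 121, giving -0.90. In what follows, a pair of intensities is always that of set A and then set B. Set B was lower on the exclusion side and nearly level on the inclusion side, and all 4 intensities were under the array's median exclusion intensity. With 50 added to every intensity its value was -0.59, smaller than the 0.78 of the 75-nt exon of Abi3bp and the 0.71 of the 49-nt exon of Dtna, so its place as the largest rests on dim probe sets being taken as listed. The other 3 Utrn events, all alternative starts, had separations from -0.02 to 0.08.

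Dtna, the gene of the dystrophin-associated alpha-dystrobrevin on chromosome 18, had a pair of cassette exons past 0.5 in opposite directions. For the 49-nt exon, the exclusion form had 514 and 722 and the inclusion form 783 and 649, giving 0.76. For the 222-nt exon, the exclusion intensities were 282 and 189 and the inclusion intensities 506 and 505, giving -0.57. The smaller exon thus had both sides moving apart, and the larger had a difference on the exclusion side only. The remaining 4 Dtna events lay between -0.10 and 0.15. In Dtnb, beta-dystrobrevin, the 5 events ranged from -0.15 to 0.32, with the highest value at a 36-nt cassette exon. In Dmd itself, a complex event reached 0.47, with exclusion intensities of 937 and 995 and inclusion intensities of 454 and 349. The multi-path event of Dmd, whose paths share 1 inclusion intensity, gave values from -0.20 to 0.14.

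Myosins had 3 events past 0.5. Of the 31 events in 15 unconventional myosin genes, whose single molecules carry cargo or tether membranes, 2 lay past 0.5 (6.45%). Of 7 events in 6 conventional heavy chain genes 1 did (14.3%), and over all events the share was 7.34%. In Myo9b, a single-headed motor, a 48-nt cassette exon at chr8:73882135-73882861 had exclusion intensities of 126 and 87 and inclusion intensities of 204 and 229, giving -0.70. The other Myo9b exon, of 90 nt, gave -0.09. Myh9, nonmuscle myosin heavy chain IIA, had an alternative end at chr15:77619348-77638297 with exclusion intensities of 626 and 671 and inclusion intensities of 595 and 924, giving -0.53. Here the inclusion form was higher in set B while the exclusion form was nearly level.

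Myo1c, a membrane-linking motor with a nuclear isoform that differs at the N-terminus, had an event of 3 paths at chr11:75465010-75470993, listed over 5984 bases, each compared with a shared inclusion intensity of 241 and 246. Path 1 was 217 and 356, path 2 was 232 and 278, and path 3 was 619 and 553. Relative to the shared intensity, these gave 0.68, 0.23 and -0.19. Paths 1 and 2 were higher in set B and path 3 was lower. RefSeq lists 3 starts of Myo1c, 5496 bases apart from the first to the last, and the table does not say which path belongs to which start. The 250 bases before each start are shown because the name of the event places it at the first position of the gene model. The capitals mark the letters GGGCGG or their reverse complement CCGCCC, the core of a GC box, and positions are those of GRCm38.p6, a build not matched to the positions of the table.

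Myo1c start 1 (chr11:75650269-75650518, + strand, GRCm38.p6): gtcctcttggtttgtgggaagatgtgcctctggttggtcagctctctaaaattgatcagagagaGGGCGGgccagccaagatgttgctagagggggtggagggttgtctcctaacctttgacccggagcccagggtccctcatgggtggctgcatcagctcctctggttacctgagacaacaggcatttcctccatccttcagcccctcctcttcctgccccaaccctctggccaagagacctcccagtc
Myo1c start 2 (chr11:75651900-75652149, + strand, GRCm38.p6): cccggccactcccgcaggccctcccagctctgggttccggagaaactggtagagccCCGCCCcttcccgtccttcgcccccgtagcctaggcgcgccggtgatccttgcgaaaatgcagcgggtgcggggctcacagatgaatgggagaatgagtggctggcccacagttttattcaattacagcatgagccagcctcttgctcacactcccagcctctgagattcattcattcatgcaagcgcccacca
Myo1c start 3 (chr11:75655765-75656014, + strand, GRCm38.p6): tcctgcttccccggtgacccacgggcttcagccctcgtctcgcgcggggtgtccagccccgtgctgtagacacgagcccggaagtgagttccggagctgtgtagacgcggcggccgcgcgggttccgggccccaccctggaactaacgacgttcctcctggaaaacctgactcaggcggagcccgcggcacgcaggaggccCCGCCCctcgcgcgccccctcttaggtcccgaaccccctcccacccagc

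Each of these windows held the GC box once. They differed in base composition, with 2, 14 and 28 CpG dinucleotides and 57.6%, 60.8% and 71.2% G and C from the first to the last. Of 94 RefSeq promoters of 63 of the genes, 58.5% held GGGCGG on either strand in the 250 bases before the start, beside 32.7% of 32851 promoters. TATAAA was found on either strand in 7.45% of the genes' promoters and 12.4% of all. The CArG box, the core of the serum response element by which many muscle and actin genes are known to be controlled, was found in 7 of the 94 (7.45%), beside 1.47% of all. Those 7 belonged to Acta1, Myo1e, Myl6, Actg1, Dmd and Ldb3, the last with overlapping windows that share 1 stretch. No letter match of this kind was set against the separations.

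The other unconventional myosins stayed within 0.43 of 0. Myo15, required in the stereocilia of hair cells, had the widest of them, a 54-nt exon with exclusion intensities of 91 and 88 and inclusion intensities of 1132 and 1470, giving -0.43. Its other events stood at intensities between 57 and 283. Myo5a, the vesicle motor of neurons and melanocytes, had values of 0.10 for an 81-nt and -0.17 for a 75-nt exon, and 0.05 for its alternative start. Myo6, the motor that runs toward the minus end, gave -0.02 and 0.17 at its small exons. The start of Myh10, nonmuscle heavy chain IIB and the major form in brain, gave 0.31, with exclusion intensities of 178 and 227 beside 1423 and 1463 for inclusion. Myl6, a light chain whose 45-nt exon separates the nonmuscle from the smooth muscle form, gave -0.08 there, with exclusion intensities of 2067 and 1950 and an inclusion intensity of 1525 in both sets. Its retained introns of 684 and 292 nt gave -0.03 and 0.01.

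**Figure D2:**
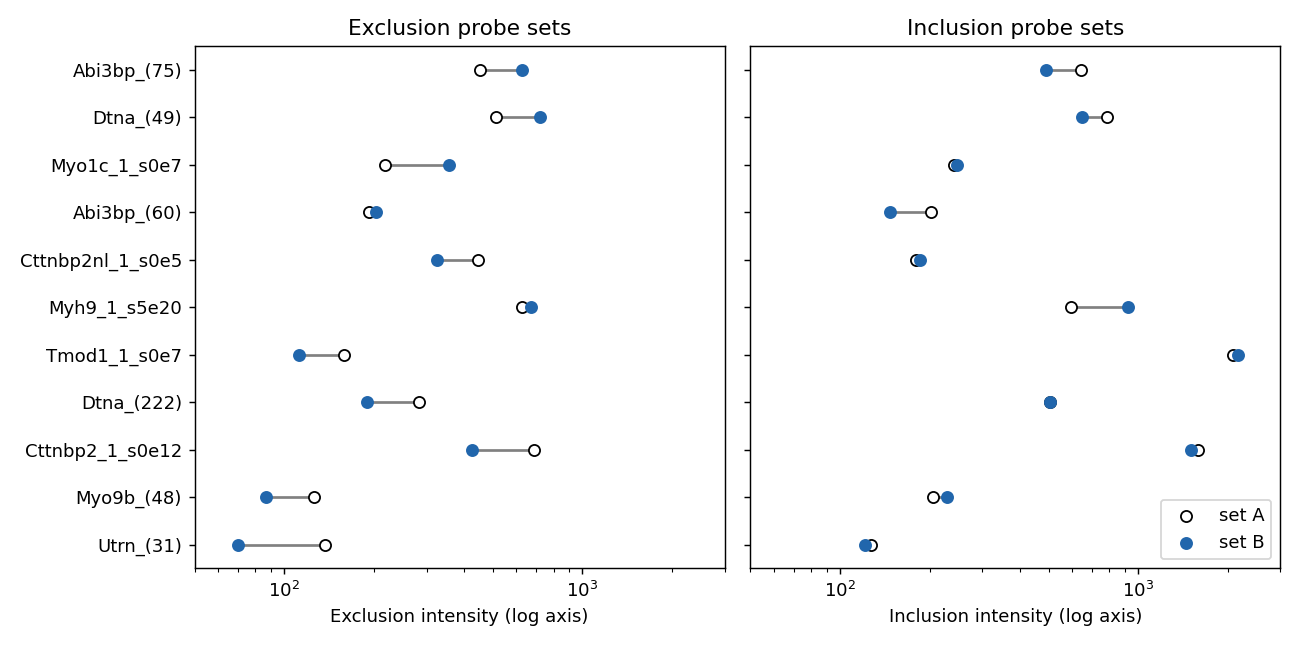
Exclusion (left) and inclusion (right) intensities of 11 of the 12 events past 0.5 on log axes, with set A as open and set B as filled points, 1 pooled value for each set. For Myo1c the left panel shows path 1 and the right panel the inclusion intensity its paths share. The sets lie farther apart on the left than on the right in 9 of the 11 events, and Myh9 and the 60-nt exon of Abi3bp are the exceptions.

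The tropomodulins had 1 of their 5 events past 0.5 (20%), beside 7.34% of all events. Tmod1, which caps the slow-growing end of actin filaments, had an alternative start at chr4:46052093-46091185 with exclusion intensities of 158 and 112 and inclusion intensities of 2084 and 2163, giving -0.55. The difference was on the exclusion side. The events of Tmod2, the neuronal tropomodulin, lay between -0.27 and 0.24.

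The genes matched by name only gave 4 of the 12. In Abi3bp a 75-nt cassette exon at chr16:56657424-56666762 had exclusion intensities of 452 and 625 and inclusion intensities of 641 and 492, giving 0.85, the second largest of all 190. A 60-nt exon of the same gene, at chr16:56647212-56652249, had exclusion intensities of 192 and 203 and inclusion intensities of 202 and 147, giving 0.54. An alternative end of Abi3bp was at 0.496, just under the threshold, while its complex events gave 0.02 and -0.36. Cttnbp2, which in neurons binds cortactin at dendritic spines, had an alternative start at chr6:18377642-18464825 with exclusion intensities of 686 and 426 and inclusion intensities of 1586 and 1505, giving -0.61. The paralog Cttnbp2nl had an alternative start at chr3:104841905-104856064 with exclusion intensities of 446 and 325 and inclusion intensities of 179 and 185, giving -0.50. In both starts set B was lower on the exclusion side.

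Ranked among all 12948 events by absolute separation, the 12 stood between place 60 (Utrn) and place 920 (Cttnbp2nl), with Abi3bp at 87, the 49-nt exon of Dtna at 139, Myo9b at 207 and Myo1c at 240. In 10 of the 12 the exclusion side differed more than the inclusion side, with path 1 of Myo1c counted as its exclusion side. In 7 of the 12 the sides moved in opposite directions. Neither count is set beside a share over the array. Of the 12, 6 were within 0.1 of the threshold and 5 had an intensity under 150. Members' share past 0.5 was 9.76% where the lowest of the 4 intensities was under 126, 7.55% from there to 241 and 4.17% above, beside 9.74%, 7.15% and 5.10% of all events. The part that dim probe sets have in these separations was not tested.

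A further 7 events lay between 0.4 and 0.5. Beside the end of Abi3bp, the complex event of Dmd and the exon of Myo15, these were a complex event of Epb4-1 (-0.48), an alternative 3′ splice site of 326 nt in Pdlim5 (0.48), the mutually exclusive exons of Tpm2 (-0.43) and a complex event of Epb4-1l2 (0.40). Epb4-1 is protein 4.1R, Epb4-1l2 protein 4.1G, and Pdlim5 a PDZ-LIM scaffold that binds alpha-actinin and protein kinase C. For Epb4-1 the exclusion intensities were 356 and 229, against 358 and 321 for inclusion. For Pdlim5 the intensities were 1076 and 1315 for exclusion and 780 and 684 for inclusion.

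**Figure D3:**
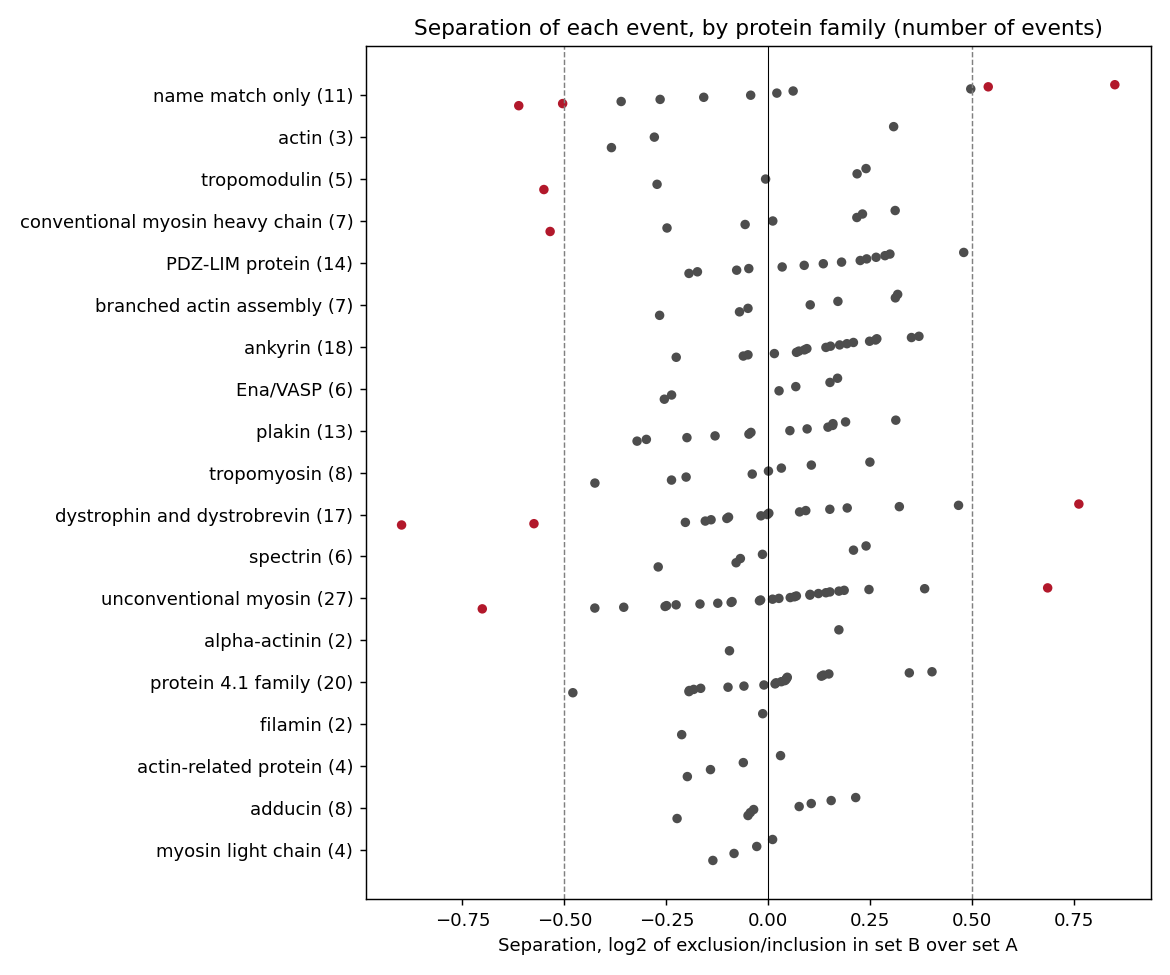
Separation (horizontal axis, log2, set B over set A) of 182 of the 190 events, 1 point each, by protein family on the vertical axis with the number of events drawn, ordered by their median absolute separation, and with dashed lines at -0.5 and 0.5. Red points are the 11 of these events past 0.5, and for multi-path events without an exclusion path the value is that of the path farthest from 0, so its sign is not a direction of exclusion. Points past the lines are seen in 5 rows, of which the top row holds the genes matched by name only.

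The ankyrins had no event past 0.5 but leaned to one side. Of the 16 events of Ank1, Ank2 and Ank3 with an exclusion path, 13 (81.2%) were above 0 and 3 below, beside 55.4% above 0 over the array, and the median separation was 0.16, beside 0.03 over all events. Ank1, ankyrin-R of erythrocytes and some neurons, ranged from -0.23 at a 125-nt exon to 0.37 at a 375-nt exon. The 375-nt exon had exclusion intensities of 556 and 688 and inclusion intensities of 334 and 320. An 88-nt retained intron of Ank1 gave 0.14. The study's gel assay of a retained intron of Ank1 found no difference by Nxf1 allele, and whether it was the same intron was not checked. In Ank2, ankyrin-B, the 3 exons of 99 nt gave 0.15, -0.06 and 0.07 with no intensity under 1052, the 183-nt exon gave 0.07, and an internal alternative start gave 0.35. In Ank3, ankyrin-G, which organizes the axon initial segment, the 27-nt exon gave 0.01 at exclusion intensities of 5106 and 5029 and inclusion intensities of 2550 and 2486. Its 33-nt exon gave -0.05 and a 587-nt alternative 3′ splice site 0.27. Events of a gene share exons and probe sets, and the members were picked by gene, so the lean is a count over 3 genes. In the other families the share above 0 ran from 25% (actin-related proteins, myosin light chains) to 80% (Ena/VASP, 4 of 5 events). In the PDZ-LIM genes it was 69.2%.

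The spectrins, whose symbols in the table are the older Spna and Spnb, had 7 events and none past 0.5. The 60-nt exon of Spna2 (alpha-II spectrin, now Sptan1) gave -0.01, with exclusion intensities of 296 and 307 and inclusion intensities of 1829 and 1916. In Spnb2 (beta-II spectrin, now Sptbn1) the alternative ends gave 0.21 and -0.27 and the start -0.08. Adducins, which cap filaments at the spectrin joint, reached only 0.22, and the 87-nt exon of Add1 gave 0.11 at exclusion intensities of 4172 and 4386. The protein 4.1 family had 20 events and a median absolute separation of 0.11, and in Epb4-1l3, protein 4.1B of brain, all 5 events lay between -0.06 and 0.13.

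Textbook exon pairs of the filament proteins ranged from -0.43 to 0.17, none past 0.5. The mutually exclusive 76-nt exons of Tpm3 gave 0.00, with exclusion intensities of 1050 and 1118 and inclusion intensities of 2664 and 2836. The pair of Actn1, of 66 and 81 nt, which sets the calcium sensitivity of alpha-actinin, gave 0.17, and the pair of Actn4, 86 nt each, gave -0.10. The Tpm2 pair, at -0.43, was the only one of the 5 mutually exclusive events past 0.2, with exclusion intensities of 259 and 247 and inclusion intensities of 353 and 452. The 111-nt repeat exon of Cttn, cortactin, gave -0.07. Enah and Evl, which lengthen filaments at their growing end, stayed between -0.25 and 0.17. Abi2, a subunit of the WAVE complex that switches on Arp2/3, gave 0.32 at a 147-nt and 0.31 at an 84-nt exon. Among actins, the 91-nt retained intron of Actg1, cytoplasmic gamma-actin, gave -0.38, with exclusion intensities of 2022 and 1964 and inclusion intensities of 291 and 369. Of the 8 retained introns in these genes none was past 0.5. The 4 events of the actin-related proteins lay between -0.20 and 0.03, and the 14 of the PDZ-LIM genes between -0.19 and 0.48.

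**Figure D4:**
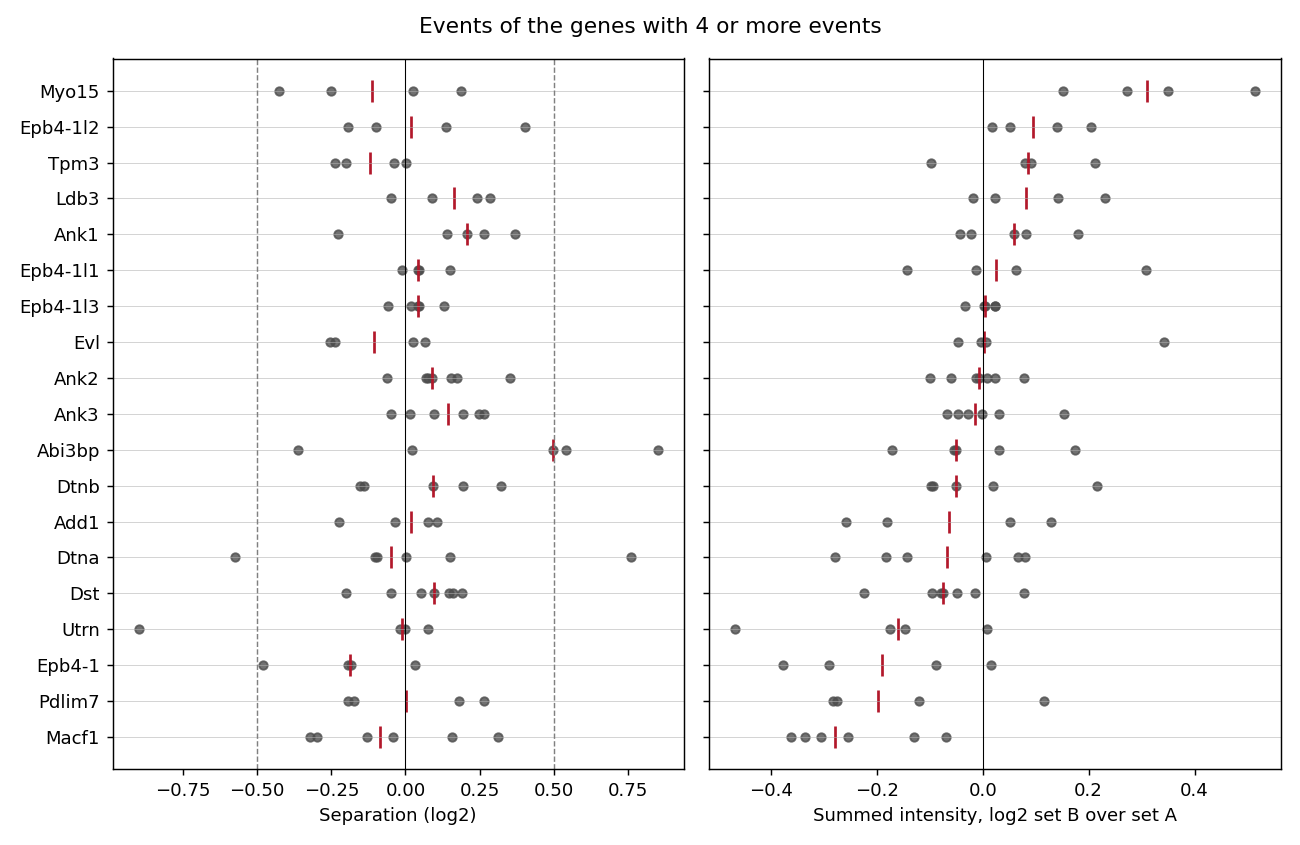
Separation (left, log2) and summed exclusion and inclusion intensity of set B over set A (right, log2) for each event of 19 of the 20 genes with 4 or more events, with red bars for the median of a gene, and dashed lines at -0.5 and 0.5 on the left. For multi-path events the path farthest from 0 is drawn. On the right all 6 Macf1 events lie below 0 and all 4 Myo15 events above, while on the left both genes have points on both sides of 0.

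The summed exclusion and inclusion intensity of an event was also set beside its separation. The sum is weighted to the brighter probe set and can move with the choice of form, as in Myh9 (a log2 of 0.39 with the difference on the inclusion side), and whether it follows the amount of RNA was not tested. All 6 events of Macf1, a plakin that crosslinks actin to microtubules, were lower in set B, by a log2 of -0.36 to -0.07 with a median of -0.28, while their separations ran from -0.32 to 0.31. All 4 events of Myo15 were higher, from 0.15 to 0.51 with a median of 0.31. Both ends of that range rest on dim probe sets, as the lowest intensity in the data was 43. The 0.51 was a 51-nt exon with exclusion intensities of 60 and 91 and inclusion intensities of 57 and 76. The 0.15 was a 711-nt retained intron with 71 and 72 for exclusion and 73 and 88 for inclusion. The sister plakin Dst had a median nearer 0, and its 7 separations lay between -0.20 and 0.19. Of the 20 member genes with 4 or more events, 1 was lower in all its events and 2 were higher in all, the other being Epb4-1l2. Over the array, 20.3% of 487 such genes were lower in all events and 8.42% higher in all. In bulk tissue, fewer cells of a type and less RNA for each cell cannot be told apart.

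The cassette exons of these genes differed from others in a feature the choice of symbols did not use, their length. The number in an event's name was read as the length of the variable segment, since it equals the listed span for 93.7% of 1071 retained introns on the array. That reading was not checked on cassettes. Of the 63 member cassettes, 52 (82.5%) had a length divisible by 3, beside 53.4% of 3763 cassettes of the array. Skipping such an exon keeps the reading frame only if it is coding, which was not checked. The median length was 87 nt, beside 101, and 31.7% were 60 nt or shorter, beside 20.4%. Exons of 1 gene are related, some by duplication as in Ank2, and this is a description with no test. Separation was like in both classes, with a median absolute value of 0.13 for the 52 exons divisible by 3 and 0.14 for the other 11. Of those 11, only the 49-nt exon of Dtna was past 0.5. Over all cassettes, members had a median of 0.13, beside 0.19 for the array, and 5 of 63 (7.94%) were past 0.5, beside 8.56% of the array's cassettes.

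By kind of event, the members past 0.5 were few, and the share over the array stands beside each count. They were 3 of 31 alternative starts (6.32% over the array), 1 of 34 alternative ends (2.78%), 2 of 4 alternative 5′ splice sites (10.8%) and 1 of 9 multi-path events (10.6%), besides the cassettes. None was among the 26 complex events (8.38%), 8 alternative 3′ splice sites (9.11%), 8 retained introns (9.86%), 5 mutually exclusive pairs (1.69%) and 2 twin cassettes (10.5%).

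Actin regulators with other symbols had a similar share past 0.5. From a list of such genes, 57 were on the array with 127 events, of which 8 (6.30%) lay past 0.5, 4 above and 4 below, and the median absolute separation was 0.19. The largest was an alternative 3′ splice site of Sorbs3, vinexin, with exclusion intensities of 439 and 247 and inclusion intensities of 737 and 732, giving -0.82. The others were Vasp (0.67), Ppp1r12a (-0.66), Mylk (0.64), Coro2a (-0.60), Neb (-0.57), Coro1a (0.57) and Ssh1 (0.56). Mylk and Ppp1r12a act on the myosin light chain, as its kinase and as the targeting subunit of its phosphatase.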

How the data were processed

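Total brain RNA from 3 Nxf1-CAST and 3 Nxf1-B6 mice in 3 same-sex littermate pairs was biotin-labelled and hybridized to Affymetrix MJAY arrays. Processing notes of the submitters name Affymetrix Power Tools, and background correction, array normalization, assembly and software version are not given in the sources used here. Deposited intensity values are whole numbers, pooled by the authors over the 3 arrays of each set, and carry no replicate spread. The authors' table also holds separation scores and q-values of their own comparison, which were not used. Probe signal ran from a lowest intensity of 43, and array number limits precision.

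Separation was calculated from the deposited intensities as log2 of the exclusion to inclusion ratio of set B over set A. An event took the size of its largest path and the sign of its exclusion path. Tests could not be run without values for single animals. Members, lists and families were chosen with earlier results of these data known, and the genes matched by name only were set apart after the values were seen. Named events were those past 0.5, the widest of each family, and all events of a list of genes with textbook alternative exons, other events being chosen after their values were seen. Other thresholds, path rules, added intensities, intensity minimums and centring were tried. RefSeq tables matched 68 genes by symbol and 11 through an older name, and 63 genes had promoters there. Values of some member genes are counted in the totals but not reported here one by one. The calculation was run on simulated data without noise, built with the same formula. That run checks the code only, not how noise or dim probe sets act. Python 3.11.15, numpy 2.4.6, pandas 2.3.3 and matplotlib 3.10.9 were used.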

Additional observations from a re-analysis of the deposited data

How the results depend on the processing

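The count of 12 events past 0.5 depended on the threshold and on the handling of dim probe sets. It was 19 at a threshold of 0.4 (8 above, 10 below), which is 10% beside 13.96% of all events. At 0.7 it was 4 (2 above, 2 below), which is 2.11% beside 1.60% of all events. With 50 added to every intensity it was 6 (2 above, 3 below; 3.16% beside 3.18%), and Myo9b (-0.50), Dtna at 222 nt (-0.47), Cttnbp2nl (-0.44), Abi3bp at 60 nt (0.42) and Tmod1 (-0.41) were among those that no longer passed. By genes at the main setting, with nothing added, 12.7% passed beside 11.7% of all genes. There the median over genes of the largest absolute separation was 0.25, beside 0.24 over all genes. With the median over paths Myo1c was at 0.23, and after centring on the median of exclusion paths the Epb4-1 event was at -0.51. Without the genes matched by name only, 2 were above and 5 below. Without alternative starts and ends, 4 were above and 3 below. No share over all events is given for either split, so neither is read as a direction of the members. The count was 9 without events under an intensity of 100 and 13 after centring, and no share over all events is given for these. It was 11 with the median over paths (5.79% beside 7.06% of all events) and 12 on the exclusion path alone (6.32% beside 7.25%). Without Abi3bp and Dtna, an alternative chosen after seeing the data, 8 of 179 passed. The paired and standard intensities were identical in all 26304 paths that list both, so the standard columns gave no separate value. No paired analysis was possible because the table holds 1 pooled value for each set, and leaving out an animal was not possible for the same reason.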
